A study of Mus musculus with 7 samples.

Results

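Collagen IV, laminin, nidogen, perlecan and agrin transcripts were followed across 7 RNA sequencing libraries of mouse kidney. The set holds 10 genes: the collagen IV chains Col4a1, Col4a2, Col4a3, Col4a4 and Col4a5, the laminin chains Lama5 and Lamb2, and Nid1, Hspg2 and Agrn. They were chosen by gene symbol, and all 10 were listed among 17537 genes and passed the filter that left 13976 genes for testing. The animals were C57BL/6 mice of 8 to 10 weeks at the start, wild type in every group and, according to the labels, all male. The 3 non-diabetic control libraries (C, replicates 2, 8 and 9) received neither agent. In the 2 DM-22 libraries hyperglycemia had been induced with low dose streptozotocin, 60 mg/kg on 5 days, and lasted for 22 weeks. In the 2 DM+SGLT2i libraries the same induction was followed, after 16 weeks, by 6 weeks of the sodium-glucose co-transporter 2 inhibitor dapagliflozin, 25 mg/kg in the drinking water. No library combined the inhibitor with a non-diabetic animal, streptozotocin and hyperglycemia were present together in every diabetic library, and the number of mice behind a library was not given in the labels, so p-values measure the spread between these libraries only.

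A basement membrane is a sheet of extracellular matrix laid down under epithelia and endothelia. Laminin trimers and collagen IV trimers each form a network, and nidogen and the heparan sulfate proteoglycans perlecan and agrin link and fill them. In most tissues, and in the mesangium, collagen IV is made of alpha-1 and alpha-2 chains, whereas the mature glomerular basement membrane carries a network of alpha-3, alpha-4 and alpha-5 chains made by podocytes, together with laminin of the alpha-5, beta-2 and gamma-1 chains. Inherited defects of the alpha-3, alpha-4 or alpha-5 chain cause Alport syndrome, and defects of laminin beta-2 cause Pierson syndrome. Thickening of this membrane is a classical lesion of diabetic kidney disease.

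The collagen IV genes lie in head-to-head pairs, which is why the sequences between their starts are shown. On GRCm38 (the assembly behind the mm10 build named by the submitters), Col4a1 (ENSMUSG00000031502) spans chr8:11198423-11312826 on the minus strand and Col4a2 (ENSMUSG00000031503) spans chr8:11312805-11449287 on the plus strand. Their annotated first exons share 22 bases. Col4a4 (ENSMUSG00000067158) spans chr1:82448423-82586849 on the minus strand and Col4a3 (ENSMUSG00000079465) spans chr1:82586921-82722059 on the plus strand, with 71 bases between the starts. Both stretches were read from the RefSeq promoter windows of GRCm38.p6 and are printed 5′ to 3′ on the plus strand, with any GC box (GGGCGG on either strand), CCAAT box (CCAAT) or TATA box (TATAAA) in capitals.
Col4a1 and Col4a2 shared start, chr8:11312805-11312826: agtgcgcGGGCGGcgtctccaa
Col4a4 to Col4a3 gap, chr1:82586850-82586920: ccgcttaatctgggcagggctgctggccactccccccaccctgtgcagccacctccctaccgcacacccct
The shared start held 1 GC box, and the gap held none of the 3 motifs. Promoter windows from 250 bases before to 50 bases after the start were matched for 9 of the 10 genes, the exception being Col4a3. A GC box stood in 7 of the 9 windows (all but those of Col4a4 and Lamb2), against 35.7% of all 32851 windows. A CCAAT box stood in 4 of 9, those of Col4a1, Col4a2, Col4a5 and Nid1, against 37.4% of all windows, and a TATA box in 0 of 9, against 13.6%. The windows of Col4a1 and Col4a2 overlap, so their matches are in part the same letters.

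The other genes of the set are not paired with each other. Col4a5 (chrX:141475385-141689234, plus strand) lies next to its paralog Col4a6, Lama5 at chr2:180176373-180225859 (minus), Lamb2 at chr9:108479736-108490530 (plus) and Nid1 at chr13:13437551-13512269 (plus). Hspg2 (chr4:137468769-137570630, plus), which encodes perlecan, and Agrn (chr4:156165290-156197488, minus) share chromosome 4 but lie far apart. The longest annotated transcripts had between 20 exons (Nid1) and 97 exons (Hspg2).

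The libraries held 46456125 to 56541594 reads on listed genes, and each member was covered by 1585 to 27252 reads per library. Counting error was therefore small beside the range of each member over the 7 libraries. It was not small beside every spread within a group, such as that of Col4a5 in C (41.2 ± 1.17 CPM, SD). One control stood apart. In C replicate 2, the summed markers of fibroblasts reached 695 CPM (read counts scaled to the TMM-normalized library size), against 170 and 229 in the other controls, with 8 of 8 markers highest of the 3 controls. Macrophage markers summed to 340 CPM against 114 and 121, with 6 of 6 highest, and mesangial and pericyte markers to 444 CPM against 231 and 279, with 7 of 8 highest. Proximal tubule markers summed to 8557 CPM against 18980 and 21340, with 0 of 8 highest. Cdkn1a, which encodes p21, stood at 72.7 CPM in this library, against 4.63 and 5.36 CPM in the other controls and 52.6 to 123 CPM in the 4 diabetic libraries. Of all tested genes, 18.0% differed by more than 2-fold between C replicate 2 and the mean of the other controls. Differences of members from C quoted here are therefore given with and without C replicate 2. The other groups were uneven as well: thick ascending limb markers summed to 13380 CPM in DM-22 replicate 1 and 3235 CPM in replicate 2, podocyte markers to 374 and 919 CPM, and the mesangial and pericyte markers to 834 and 404 CPM in DM+SGLT2i replicates 1 and 2. Kidney markers were present in all libraries, and no marker of any of the 9 lists was at 0 (the lowest stood at 0.301 CPM).

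**Figure D1:**
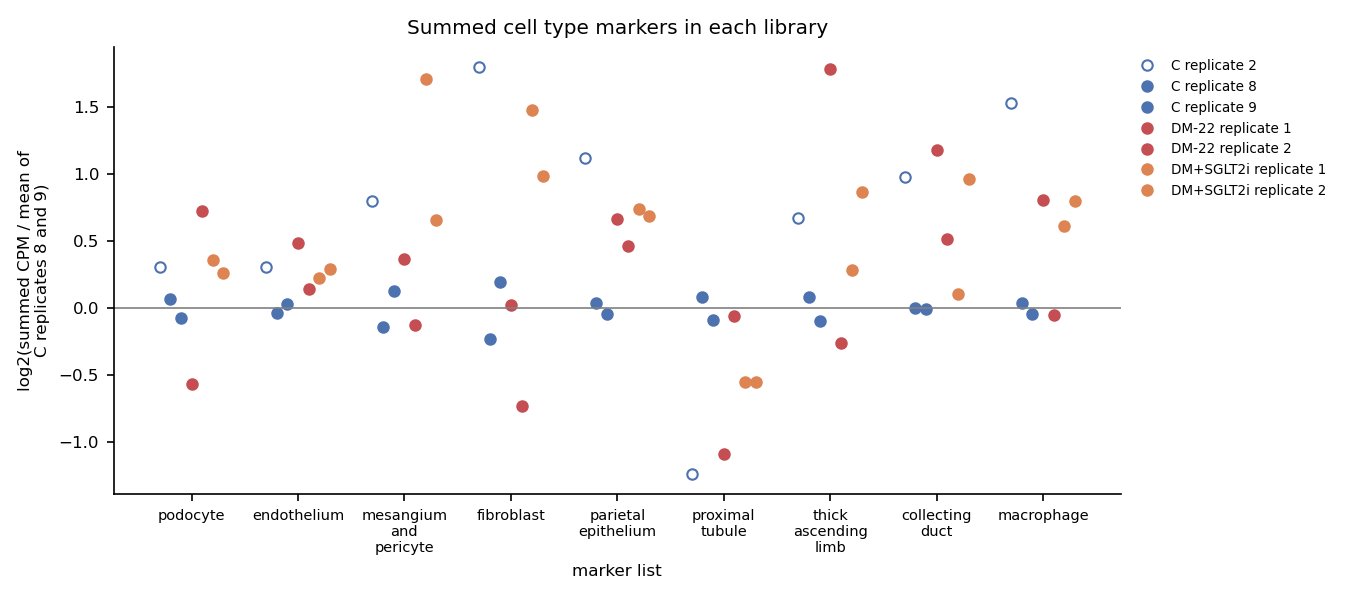
Summed CPM of 9 lists of cell type markers in each library, as the log2 ratio to the mean of C replicates 8 and 9 (vertical axis), by list (horizontal axis). The open circle is C replicate 2, which lay above both other controls for every list except proximal tubule, where it lay below both.

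Per kilobase of exon, the alpha-1 and alpha-2 chains were the most abundant members. Col4a1 averaged 48.9 CPM per kb over the 7 libraries and Col4a2 40.7, followed by Col4a4 at 21.5, Col4a3 at 18.5 and Agrn at 14.8 CPM per kb. Lamb2 and Nid1 lay close together at 11.0 and 10.9 CPM per kb, Hspg2 and Lama5 at 7.80 and 7.69, and Col4a5 was lowest at 5.99. In C, adjacent genes overlapped within their spread: Col4a1 was at 41.2 ± 18.3 and Col4a2 at 35.04 ± 14.2 CPM per kb (SD, n = 3), Col4a4 at 21.7 ± 6.90 and Col4a3 at 18.1 ± 6.23. Agrn, at 15.9 ± 2.09, lay above Lamb2, at 9.82 ± 0.73, by more than the spread of either. The sixth chain, Col4a6, was at 0.458 CPM per kb. Levels between genes depend on the length used, here the union of all annotated exons, and Col4a5 stood below its trimer partners Col4a3 and Col4a4 on this scale in each of the 7 libraries.

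Between libraries, the members varied by very different amounts. The highest library exceeded the lowest by 2.48-fold for Col4a1, 2.47-fold for Nid1, 2.42-fold for Col4a2, 2.38-fold for Lama5, 2.37-fold for Hspg2 and 2.08-fold for Col4a3. The range was 1.95-fold for Col4a4, 1.74-fold for Agrn, 1.56-fold for Lamb2 and 1.200-fold for Col4a5. The median of all tested genes was 1.69-fold, so Col4a5 and Lamb2 were steadier than the typical gene and the other 8 were not.

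**Figure D2:**
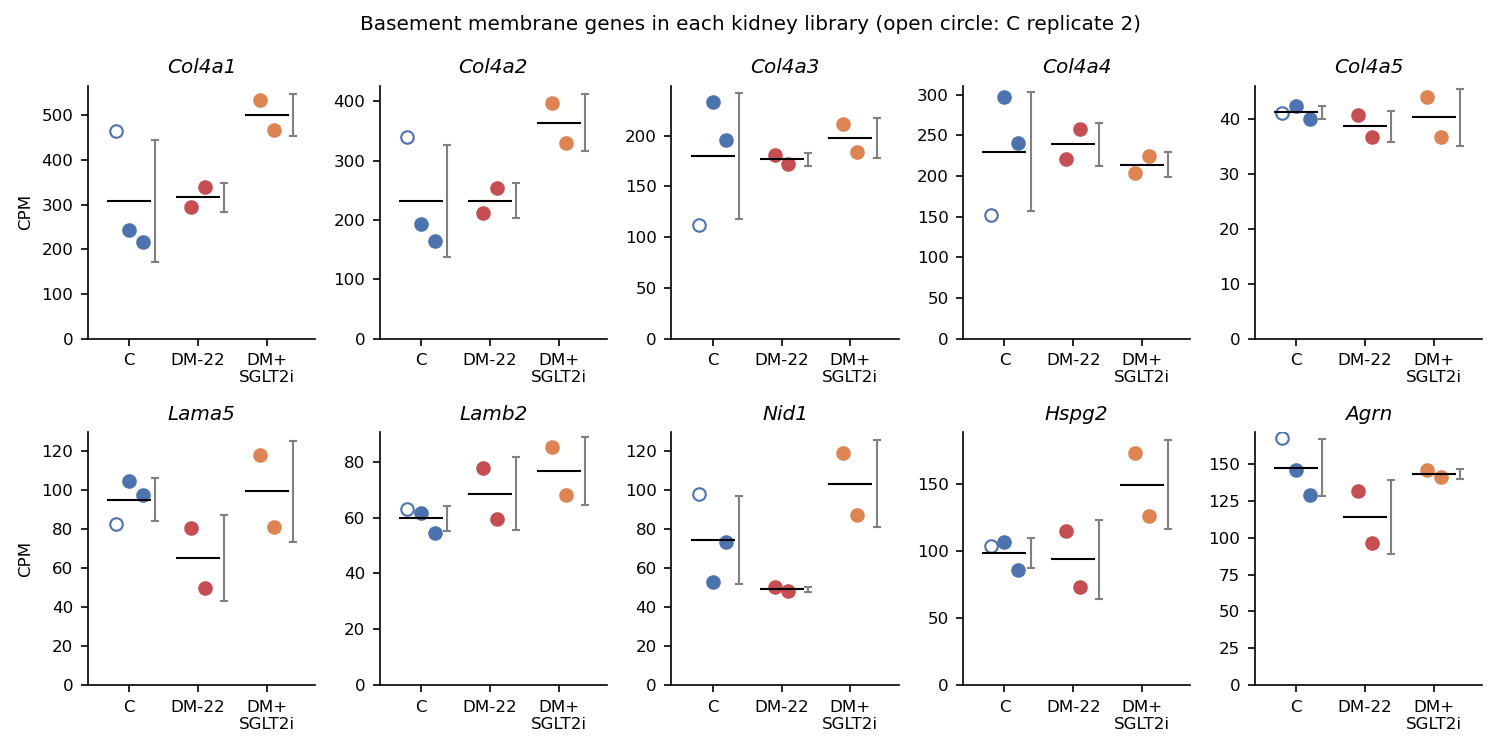
CPM (vertical axes, each from 0) of the 10 genes in each library, by group (horizontal axes). Points are libraries, horizontal lines group means and grey bars ± SD; the open circle, C replicate 2, lies with the DM+SGLT2i libraries for Col4a1 and Col4a2 and is the lowest of all 7 for Col4a3 and Col4a4.

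Col4a1 and Col4a2, which encode the widely used alpha-1 and alpha-2 chains, were highest in the kidneys of DM+SGLT2i mice. Col4a1 stood at 464, 244 and 215 CPM in C replicates 2, 8 and 9, at 294 and 339 CPM in DM-22 and at 533 and 468 CPM in DM+SGLT2i. Both DM+SGLT2i libraries lay above all others, by a narrow margin over C replicate 2, while the DM-22 libraries lay between C replicate 2 and the other controls. The group means were 308 ± 136 CPM in C (SD, n = 3), 317 ± 32.1 in DM-22 (n = 2) and 500.5 ± 46.5 in DM+SGLT2i (n = 2). Col4a2 gave 339, 192 and 164 CPM in C, 211 and 253 CPM in DM-22 and 398 and 330 CPM in DM+SGLT2i. Its DM+SGLT2i libraries did not overlap with DM-22 but did overlap with C, through C replicate 2.

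On the log2 scale, the fitted difference between DM+SGLT2i and C was 0.78 ± 0.34 for Col4a1 (SE, adjusted p = 0.9997) and 0.72 ± 0.32 for Col4a2 (adjusted p = 0.9997). All log2 fold changes here are on the log2(CPM + 0.5) scale and were tested with limma. Between DM+SGLT2i and DM-22, the differences were 0.66 ± 0.37 and 0.65 ± 0.35 (adjusted p = 0.881 for both), and between DM-22 and C they were 0.12 ± 0.34 and 0.07 ± 0.32 (adjusted p = 0.938 and 0.971). None of these passed the adjusted threshold of 0.05. Without C replicate 2, Col4a1 differed between DM+SGLT2i and C by 1.12 ± 0.16 (adjusted p = 0.0775) and Col4a2 by 1.03 ± 0.18 (adjusted p = 0.0968), and between DM-22 and C by 0.46 ± 0.16 and 0.38 ± 0.18 (adjusted p = 0.158 and 0.238). When, in addition, only the DM+SGLT2i and C libraries entered the fit, a choice made after seeing the data, both passed the threshold of 0.05, Col4a1 with adjusted p = 0.00932 and Col4a2 with adjusted p = 0.0134. In that fit 1648 of 13841 genes, 11.9%, passed as well, and these were the only 2 members among them.

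Markers of several cell types differed between the libraries as well. Parietal epithelium markers summed to 323 CPM in C replicate 2, 153 and 144 CPM in the other controls, 235 and 205 CPM in DM-22 and 247 and 239 CPM in DM+SGLT2i, so that both diabetic groups lay above C replicates 8 and 9 and below C replicate 2. Krt8 and Krt18 gave most of that sum, at 172 and 60.8 CPM in C replicate 2, and the cells they came from were not tested. Macrophage markers summed to 340 CPM in C replicate 2, 121 and 114 CPM in the other controls, 206 and 114 CPM in DM-22 and 180 and 205 CPM in DM+SGLT2i. In the fit of DM+SGLT2i and C alone without C replicate 2, 11.9% of all genes passed. Upward passed 4 of 5 parietal epithelium, 5 of 6 macrophage, 3 of 8 fibroblast, 3 of 10 podocyte and 2 of 10 endothelium markers. So did 1 of 8 mesangial and pericyte markers, which is near the share of all genes, 1 of 5 thick ascending limb and 1 of 6 collecting duct markers. Downward passed 1 of 8 proximal tubule markers. The fibroblast markers summed to 557 and 396 CPM in DM+SGLT2i, 203 and 121 CPM in DM-22 and 170 to 695 CPM in C, and the mesangial and pericyte markers to 834 and 404 CPM in DM+SGLT2i, 330 and 235 CPM in DM-22 and 231 to 444 CPM in C. Most of the 834 CPM came from Acta2, Myh11 and Tagln, at 212, 207 and 138 CPM, against 67.2, 33.7 and 68.4 CPM in DM+SGLT2i replicate 2. All 8 of 8 fibroblast and 8 of 8 mesangial and pericyte markers had a positive difference between DM+SGLT2i and DM-22, with a median of 1.74 and 0.81. So had 10 of 10 podocyte, 6 of 6 macrophage and 4 of 5 parietal epithelium markers (median 0.31, 0.37 and 0.67). The other lists were mixed, with 6 of 8 proximal tubule, 3 of 5 thick ascending limb, 5 of 10 endothelium and 1 of 6 collecting duct markers positive. Between DM-22 and C, all 8 fibroblast markers had a negative difference (median -0.89). Without C replicate 2, 7 were negative and 1 positive (median -0.31). The difference of Col4a1 was 0.12, and 0.46 without C replicate 2. The part of these cell types in the collagen result was not tested, and in RNA from renal tissue more cells of a type and more RNA per cell cannot be told apart.

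Col4a3 and Col4a4, the alpha-3 and alpha-4 chains of the glomerular network, ran the other way in the controls. Col4a3 stood at 112 CPM in C replicate 2 and at 234 and 195 CPM in C replicates 8 and 9, with 181 and 172 CPM in DM-22 and 212 and 184 CPM in DM+SGLT2i. Col4a4 gave 152, 298 and 240 CPM in C, 221 and 258 CPM in DM-22 and 203 and 225 CPM in DM+SGLT2i. C replicate 2 was the lowest library for both, at 0.523-fold and 0.566-fold the mean of the other controls, and the diabetic libraries fell within the range of the 3 controls. Without C replicate 2, both DM-22 libraries lay below the controls for Col4a3, and both DM+SGLT2i libraries for Col4a4. In that setting, 59.7% and 61.6% of all genes did not overlap between these groups and C. Podocyte markers did not share that pattern as a sum, at 687 CPM in C replicate 2 against 528 and 582 CPM in the other controls. Singly they were mixed: 6 of 10 were highest in C replicate 2 of the 3 controls, and Podxl alone gave 313 CPM there. Magi2, Nphs1 and Wt1 were lowest there, at 0.581-fold, 0.693-fold and 0.853-fold the mean of the other controls. Proximal tubule markers, with 0 of 8 highest in C replicate 2, went the same way as Col4a3 and Col4a4.

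No group difference in Col4a3 or Col4a4 passed the adjusted threshold. Between DM-22 and C the log2 differences were 0.04 ± 0.31 for Col4a3 and 0.10 ± 0.28 for Col4a4 (adjusted p = 0.981 and 0.938), and between DM+SGLT2i and C they were 0.20 ± 0.31 and -0.05 ± 0.28 (adjusted p = 0.9997 for both). Without C replicate 2, all 4 differences were negative: -0.27 ± 0.15 for Col4a3 and -0.17 ± 0.17 for Col4a4 in DM-22 (adjusted p = 0.302 and 0.556), and -0.11 ± 0.15 and -0.32 ± 0.17 in DM+SGLT2i (adjusted p = 0.725 and 0.372). Thus 3 of the 4 changed sign when 1 control was left out.

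Col4a5, the X-linked alpha-5 chain, was the steadiest member. Its values ran from 40.1 to 42.4 CPM in C, from 36.7 to 40.7 CPM in DM-22 and from 36.7 to 44.0 CPM in DM+SGLT2i, and C replicate 2, at 41.2 CPM, did not stand apart. The log2 differences from C were -0.09 ± 0.14 in DM-22 (adjusted p = 0.872) and -0.04 ± 0.14 in DM+SGLT2i (adjusted p = 0.9997), and to 2 decimals the same without C replicate 2 (adjusted p = 0.695 and 0.909).

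The make-up of collagen IV transcripts differed between libraries along the gene pairs. Per kilobase, Col4a1 and Col4a2 together made up 51.5% and 52.5% of collagen IV transcripts in C replicates 8 and 9 but 77.8% in C replicate 2. They made up 61.0% and 63.9% in the DM-22 libraries and 73.5% and 71.1% in the DM+SGLT2i libraries. Leaving C replicate 2 aside, the 3 groups did not overlap, in the order C, DM-22, DM+SGLT2i. With it, the controls spanned the whole range. Col4a3, Col4a4 and Col4a5 together made up 48.2% and 47.2% in C replicates 8 and 9, 21.7% in C replicate 2, 38.5% and 35.9% in DM-22, and 26.2% and 28.6% in DM+SGLT2i.

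**Figure D3:**
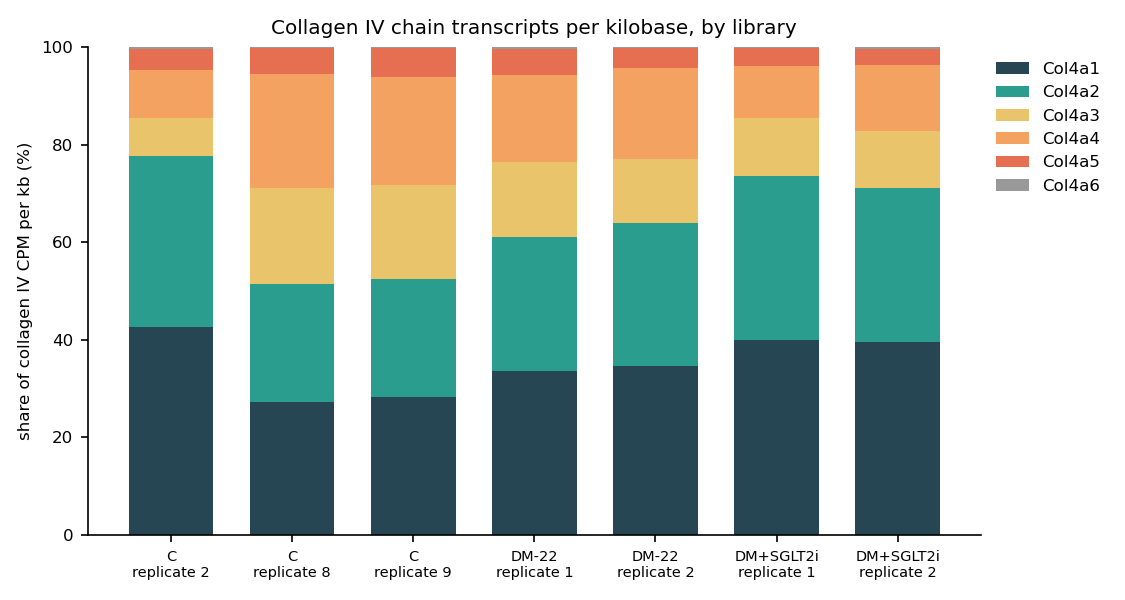
Share of each collagen IV chain in the collagen IV transcripts of each library (vertical axis, percent of summed CPM per kb; stacked bars, Col4a6 below 1% in each). Col4a1 and Col4a2 rise from 51.5% in C replicate 8 to 73.5% in DM+SGLT2i replicate 1, and C replicate 2 has 77.8%.

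Of 5 ratios between chains that were compared between the 4 diabetic and the 3 control libraries, none passed after adjustment. The ratio of Col4a3, Col4a4 and Col4a5 to Col4a1 and Col4a2, from CPM, was 0.380 in C replicate 2, 1.32 and 1.25 in C replicates 8 and 9, 0.876 and 0.788 in DM-22 and 0.493 and 0.559 in DM+SGLT2i. Its mean log2 difference, diabetic minus C, was -0.37 (exact two-sided permutation p = 0.457, adjusted 0.762) and -0.96 without C replicate 2. Within a pair the ratios covered narrower ranges. Col4a1 to Col4a2 ran from 1.27 to 1.42 over the 7 libraries, with a log2 difference of 0.06 (exact permutation p = 0.171, adjusted 0.429), and Col4a3 to Col4a4 ran from 0.669 to 1.04, with a difference of 0.09 (exact permutation p = 0.629, adjusted 0.786). The smallest p that 3 against 4 libraries allow is 0.0571, so no ratio could pass.

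Lama5 and Lamb2 encode the alpha-5 and beta-2 chains of the mature glomerular laminin. Lama5 stood at 82.7, 104 and 97.5 CPM in C replicates 2, 8 and 9, at 80.6 and 49.5 CPM in DM-22 and at 118 and 80.7 CPM in DM+SGLT2i. Both DM-22 libraries lay below the controls, the first of them narrowly, and the DM+SGLT2i libraries lay on either side. The log2 difference between DM-22 and C was -0.58 ± 0.26 (adjusted p = 0.804) and -0.67 ± 0.28 without C replicate 2 (adjusted p = 0.204), and that between DM+SGLT2i and DM-22 was 0.62 ± 0.29 (adjusted p = 0.881). Lamb2 gave 62.9, 61.6 and 54.6 CPM in C, 77.8 and 59.4 CPM in DM-22 and 85.2 and 68.1 CPM in DM+SGLT2i, the last above every control. Its log2 difference between DM+SGLT2i and C was 0.35 ± 0.18 (adjusted p = 0.9997) and 0.39 ± 0.19 without C replicate 2 (adjusted p = 0.334).

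The laminin partners set these values in context. Lamb1, the beta-1 chain of the immature and the tubular laminins, was more abundant than Lamb2, at 164 to 207 CPM in C, 146 and 201 CPM in DM-22 and 192 and 232 CPM in DM+SGLT2i. The ratio of Lamb2 to Lamb1 was 0.303, 0.307 and 0.334 in C, 0.387 and 0.408 in DM-22 and 0.368 and 0.355 in DM+SGLT2i. All 4 diabetic libraries lay above all 3 controls, by a mean log2 difference of 0.27, which gave the smallest p the design allows (exact permutation p = 0.0571, adjusted 0.286). Lama1 encodes the alpha-1 chain, which in the adult kidney is found in tubular basement membranes, and ran at 13.9 CPM in C replicate 2, 41.2 and 36.8 CPM in the other controls and 19.0 to 33.2 CPM in the diabetic libraries. The ratio of Lama5 to Lama1 was 5.97 in C replicate 2, 2.53 and 2.65 in the other controls and 2.04 to 4.23 in the diabetic libraries, a log2 difference of -0.05 (exact permutation p = 0.914, adjusted 0.914) and of 0.35 without C replicate 2. Lamc1, the shared gamma-1 chain, stood at 52.6 to 75.8 CPM in C, 53.9 and 66.5 CPM in DM-22 and 71.1 and 82.4 CPM in DM+SGLT2i.

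Nid1, encoding nidogen-1, the linker between laminin and collagen IV, had the largest fitted difference of the 10 genes between the diabetic groups. It stood at 97.7, 52.6 and 73.0 CPM in C replicates 2, 8 and 9, at 49.96 and 48.1 CPM in DM-22 and at 119 and 87.3 CPM in DM+SGLT2i. Both DM-22 libraries lay below every control and both DM+SGLT2i libraries above C replicates 8 and 9. The mean was 49.0 ± 1.33 CPM in DM-22 and 103 ± 22.3 CPM in DM+SGLT2i (SD, n = 2 each), and the log2 difference was 1.05 ± 0.30 (adjusted p = 0.881 with all 3 controls in the fit and 0.448 without C replicate 2). Against C, the difference was -0.55 ± 0.27 in DM-22 (adjusted p = 0.804) and 0.49 ± 0.27 in DM+SGLT2i (adjusted p = 0.9997). These became -0.34 ± 0.22 (adjusted p = 0.362) and 0.71 ± 0.22 (adjusted p = 0.189) once C replicate 2 was left out. Its paralog Nid2 stood at 27.1 to 33.1 CPM in C, 20.6 and 35.2 CPM in DM-22 and 32.1 and 40.7 CPM in DM+SGLT2i.

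Hspg2, encoding perlecan, was higher in both DM+SGLT2i libraries than in any other. It stood at 103, 106 and 85.6 CPM in C, at 115 and 72.9 CPM in DM-22 and at 173 and 126 CPM in DM+SGLT2i. C replicate 2 did not stand apart for this gene. The log2 difference between DM+SGLT2i and C was 0.59 ± 0.24 (adjusted p = 0.9997), and 0.62 ± 0.27 without C replicate 2 (adjusted p = 0.299). Against DM-22 it was 0.68 ± 0.27 (adjusted p = 0.881). Agrn, encoding the main heparan sulfate proteoglycan of the mature glomerular basement membrane, gave 168, 146 and 129 CPM in C, 132 and 96.6 CPM in DM-22 and 146 and 141 CPM in DM+SGLT2i. Its DM-22 libraries overlapped with the controls, and the log2 differences from C were -0.38 ± 0.19 in DM-22 (adjusted p = 0.804) and -0.03 ± 0.19 in DM+SGLT2i (adjusted p = 0.9997). When C replicate 2 was left out, they were -0.28 ± 0.18 and 0.06 ± 0.18 (adjusted p = 0.357 and 0.877).

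**Figure D4:**
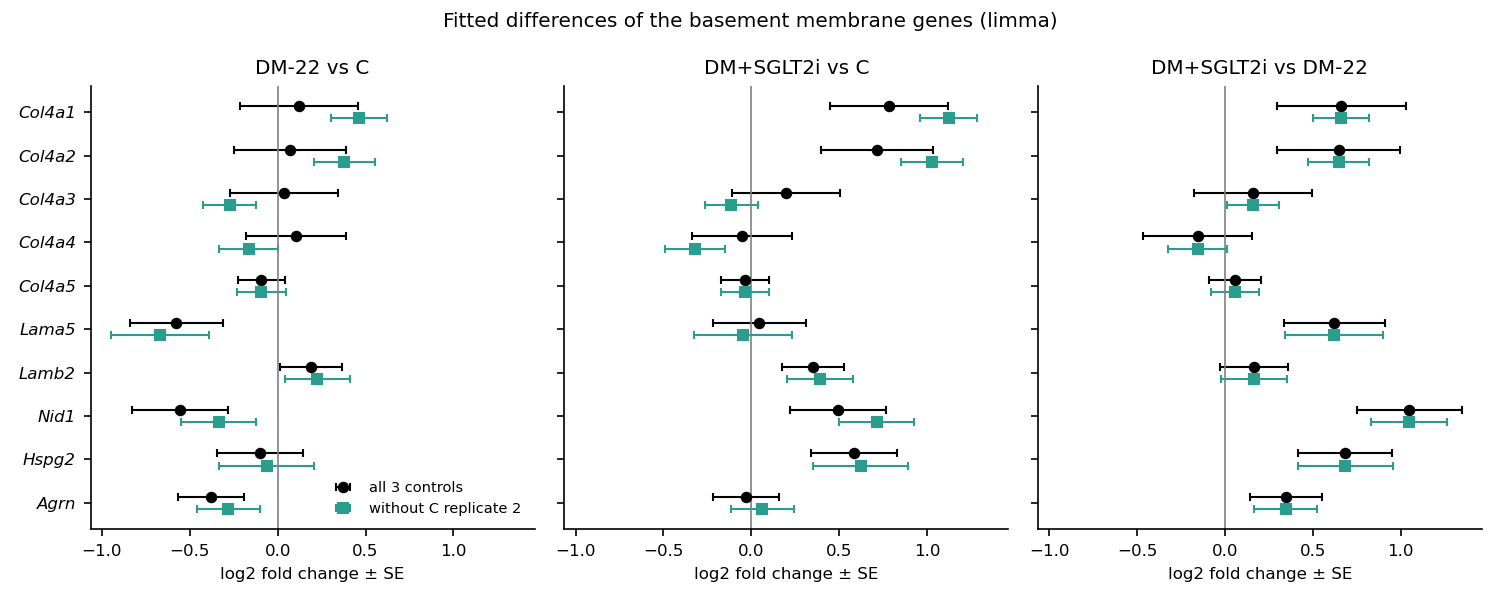
Fitted log2 fold changes (horizontal axes, ± SE) of the 10 genes (vertical axis) in 3 comparisons, with all 3 controls (black circles) and without C replicate 2 (green squares). Leaving out C replicate 2 moves Col4a1 from 0.78 to 1.12 and Col4a3 from 0.20 to -0.11 in DM+SGLT2i against C, and does not move the fitted differences between the diabetic groups.

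Over the whole table, 0 genes and 0 members passed an adjusted p of 0.05 with limma in any of the 4 comparisons (0% each), nor did any with voom weights. At an unadjusted p-value under 0.05, 0 of the 10 members passed between DM-22 and C, against 4.47% of all genes, and 1, Hspg2, between DM+SGLT2i and C, against 1.08%. Nid1 and Hspg2 passed between DM+SGLT2i and DM-22, 2 of 10 against 3.91%, and 0 members passed between all diabetic libraries and C, against 2.04%. Without C replicate 2, 0 members passed the adjusted threshold in any comparison, against 0.0144% of genes between DM-22 and C, 0.123% between DM+SGLT2i and C, 0% between the diabetic groups and 0.202% between all diabetic libraries and C. At the unadjusted threshold, Col4a1 then passed between DM-22 and C, 1 of 10 against 25.4% of genes. Col4a1, Col4a2 and Nid1 passed between DM+SGLT2i and C, 3 of 10 against 17.9%. Col4a1, Col4a2, Nid1 and Hspg2 passed between the diabetic groups, 4 of 10 against 10.7%, and Col4a1 and Col4a2 between all diabetic libraries and C, 2 of 10 against 25.0%. The last share and that for DM-22 lay below the background.

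The direction between the diabetic groups was more even than their differences from C. Of the 10 members, 9 had a positive log2 difference between DM+SGLT2i and DM-22, with a median of 0.48 beside 0.00 over all genes, the exception being Col4a4. Without DM-22 replicate 2 the median was 0.198. In 7 members (Col4a1, Col4a2, Col4a3, Lama5, Nid1, Hspg2 and Agrn) both DM+SGLT2i libraries lay above both DM-22 libraries, and 41.5% of all genes did not overlap between these groups in one direction or the other. Between DM+SGLT2i and C, 7 of 10 differences were positive, with a median of 0.27 beside -0.01, and 3 members (Col4a1, Lamb2 and Hspg2) did not overlap, against 12.3% of genes. Between DM-22 and C, 5 were positive and 5 negative, with a median of -0.03 beside 0.00, and 2 members (Lama5 and Nid1) did not overlap, both lower in DM-22, against 20.1% of genes. Without C replicate 2, 3 differences between DM-22 and C were positive and 7 negative, with a median of -0.13 beside 0.00. Between DM+SGLT2i and C, 6 were then positive and 4 negative, with a median of 0.23 beside -0.03. In the same setting, 6 members did not overlap between DM+SGLT2i and C, and 5 between DM-22 and C, against 61.6% and 59.7% of genes. In DM+SGLT2i, Col4a1, Col4a2, Lamb2, Nid1 and Hspg2 were higher and Col4a4 was lower. In DM-22, Col4a1 and Col4a2 were higher and Col4a3, Lama5 and Nid1 were lower. The groups compared with C share their controls, and both comparisons with DM+SGLT2i share its libraries.

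Likeness of profiles was measured as the root mean square difference of the centred log2(CPM + 0.5) values over the 7 libraries, so smaller is more alike. The gene nearest to Col4a1 among all tested genes was Col4a2, at 0.0501. Naip1, Gdpd5, E2f1 and Gata3 followed at 0.104 to 0.136. The genes nearest to Col4a3 were Igf1r, Atxn1l, Hectd4, Atrnl1 and Atxn2, at 0.0867 to 0.0996, while its head-to-head neighbour Col4a4 ranked 309th nearest at 0.1804. Among the 10 members, over the 7 libraries, Col4a1 with Col4a2 and Col4a3 with Col4a4 were the closest pairs, and Col4a4 with Nid1 was the most distant, at 0.697. All points share libraries. Over the 6 libraries without C replicate 2, a choice added after seeing the data, Col4a2 was again the nearest to Col4a1, at 0.0531, and E2f1 and Naip1 were again among its 5 nearest. The 5 nearest to Col4a3 were then other genes (Zfp157, Ep400, Fam160b1, Vps13d and Gsk3b, at 0.0317 to 0.0375), Col4a4 ranked 2979th, and Col4a5 was the member closest to Col4a3, at 0.0935.

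The other basement membrane components were mostly lower than C in DM-22 and mostly higher than C in DM+SGLT2i. Of 26 genes, 7 had a positive and 19 a negative log2 difference between DM-22 and C (median -0.18), 20 were positive between DM+SGLT2i and C (median 0.31) and 22 between DM+SGLT2i and DM-22 (median 0.38), beside all-gene medians of 0.00, -0.01 and 0.00. The median between DM-22 and C rested on DM-22 replicate 2, without which it was 0.00179. None passed the adjusted threshold with all 3 controls, while at the unadjusted threshold 0 passed upward and 4 downward in DM-22, 0 in DM+SGLT2i against C, and 5 upward between the diabetic groups. The most abundant were Col18a1, whose product is the source of endostatin, and Sparc, a collagen-binding matricellular protein. Col18a1 stood at 468 CPM in C replicate 2, 156 and 188 CPM in the other controls, 270 and 281 CPM in DM-22 and 330 and 356 CPM in DM+SGLT2i. Sparc gave 435 CPM in C replicate 2, 109 and 131 CPM in the other controls, 177 and 206 CPM in DM-22 and 259 and 273 CPM in DM+SGLT2i. In both, as in Col4a1, C replicate 2 was far above the other controls and the order of the rest was C, DM-22, DM+SGLT2i.

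Within these 26 genes, the strongest in each direction did not pass either. Npnt, which encodes the integrin ligand nephronectin, differed between DM-22 and C by 0.57 ± 0.39 (adjusted p = 0.804), and Frem1, an extracellular matrix protein of the Fraser complex, by -1.56 ± 0.45 (adjusted p = 0.804). Papln differed between DM+SGLT2i and C by 0.71 ± 0.33 and Lamc3, the laminin gamma-3 chain, by -0.21 ± 0.22 (adjusted p = 0.9997 for both).

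**Figure D5:**
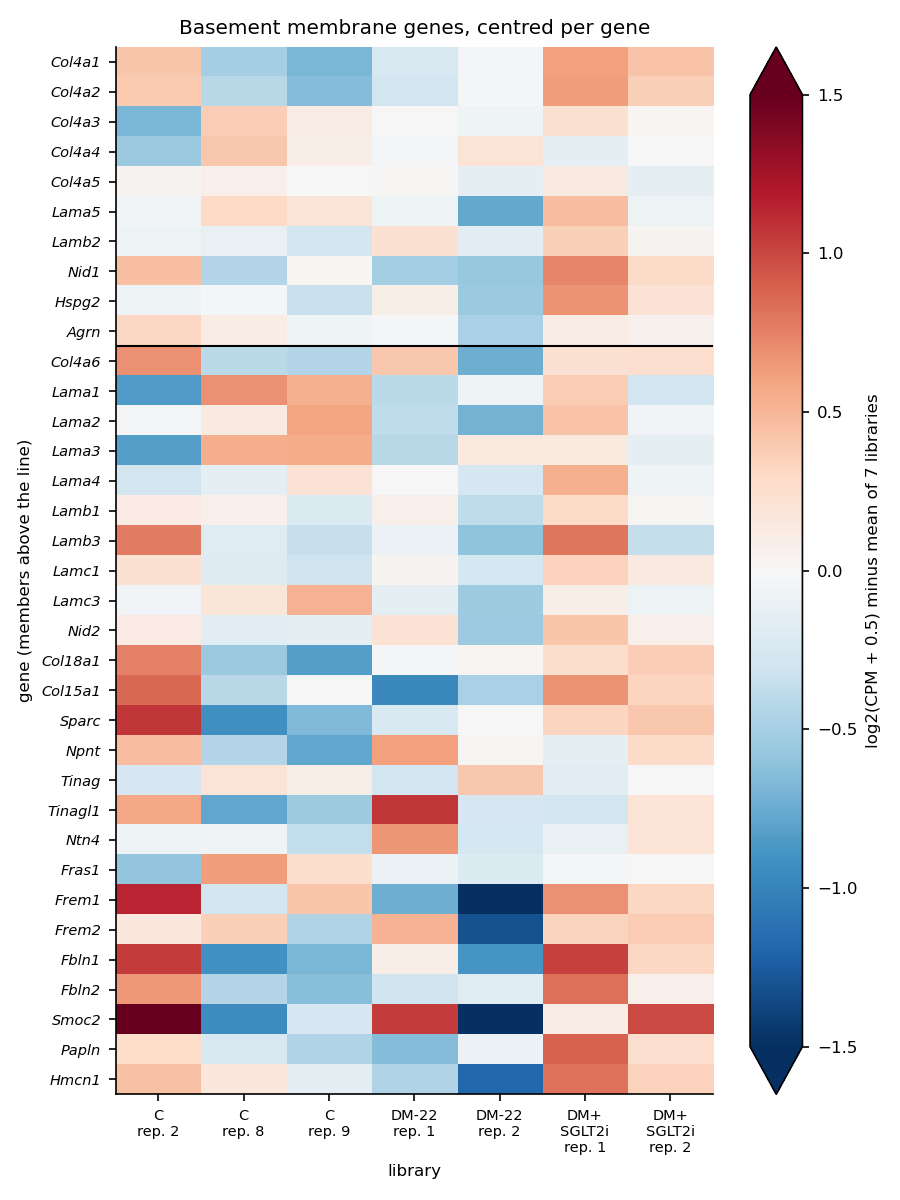
Log2(CPM + 0.5) minus each gene's mean over the 7 libraries (color; values beyond ± 1.5 take the end colors) for the 10 genes (above the line) and 25 of the 26 other basement membrane components (rows), by library (columns). Col4a1, Col4a2, Col18a1 and Sparc are high in C replicate 2 and in both DM+SGLT2i libraries and low in C replicates 8 and 9, whereas Col4a3 and Col4a4 are lowest in C replicate 2.

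The genes for folding, modifying and crosslinking collagen, needed before a chain can leave the cell or be fixed in the matrix, were mostly above C in both diabetic groups. Of 21 tested genes, 16 were positive in DM-22 against C (median 0.20), 17 in DM+SGLT2i against C (median 0.06) and 10, about as many as were negative, between the diabetic groups (median -0.02). The first median was 0.371 without C replicate 2 and 0.0478 and 0.0547 without C replicates 8 and 9. 0 passed the adjusted threshold, and at the unadjusted threshold 0 passed against C in either diabetic group and 1 in each direction between the diabetic groups. P4hb, protein disulfide isomerase, ran from 735 to 924 CPM in C, at 1024 and 1026 CPM in DM-22 and at 739 and 967 CPM in DM+SGLT2i, and P3h2, a prolyl 3-hydroxylase, from 126 to 270 CPM in C, at 196 and 276 CPM in DM-22 and at 173 and 191 CPM in DM+SGLT2i. Plod2, a lysyl hydroxylase, differed from C by 0.50 ± 0.23 in DM-22 (adjusted p = 0.804) and by -0.21 ± 0.23 in DM+SGLT2i (adjusted p = 0.9997). P3h3 differed by -0.38 ± 0.19 in DM-22 (adjusted p = 0.804), and Loxl4, a lysyl oxidase-like enzyme, by 1.08 ± 0.55 in DM+SGLT2i (adjusted p = 0.9997).

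Receptors for basement membrane proteins were mostly above C in both diabetic groups. Of 16 tested genes, 11 were positive in DM-22 against C (median 0.19), 14 in DM+SGLT2i against C (median 0.35) and 12 between the diabetic groups (median 0.12). 0 passed the adjusted threshold, and at the unadjusted threshold 0 passed against C in either diabetic group and 1, upward, between the diabetic groups. Sdc4 (syndecan-4) ran from 356 to 419 CPM in C, at 436 and 469 CPM in DM-22 and at 367 and 446 CPM in DM+SGLT2i, and Itgb1, the common integrin beta-1 chain, from 257 to 376 CPM in C, at 289 and 305 CPM in DM-22 and at 304 and 341 CPM in DM+SGLT2i. Gpc1 (glypican-1) differed from C by 0.57 ± 0.30 in DM-22 and Itga8, the integrin chain that binds nephronectin, by -0.62 ± 0.32 (adjusted p = 0.804 for both). Itga1, the alpha chain of the integrin that binds collagen IV, differed by 0.47 ± 0.22 in DM+SGLT2i and the collagen receptor Ddr1 by -0.18 ± 0.17 (adjusted p = 0.9997 for both).

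Matrix proteases and their inhibitors were mostly lower in DM-22 than in DM+SGLT2i, though no single gene passed between these groups. Of 17 tested genes, 7 were positive in DM-22 against C (median -0.43, but 0.21 without DM-22 replicate 2), 12 in DM+SGLT2i against C (median 0.30) and 15 between the diabetic groups (median 0.65). 0 passed the adjusted threshold, and at the unadjusted threshold 1, Mmp15, passed against C in each diabetic group and 0 between the diabetic groups. The most abundant were Mep1a, a brush border metalloprotease, at 1683 to 2385 CPM in C, 1966 and 2668 CPM in DM-22 and 1807 and 2216 CPM in DM+SGLT2i, and Timp3, a matrix-bound inhibitor. Timp3 ran at 1112 CPM in C replicate 2, 2545 and 2813 CPM in the other controls, 1246 and 3270 CPM in DM-22 and 1490 and 1559 CPM in DM+SGLT2i. Mmp15, a membrane-type metalloprotease, differed from C by 0.80 ± 0.30 in DM-22 (adjusted p = 0.804) and by 0.996 ± 0.300 in DM+SGLT2i (adjusted p = 0.9997), and Adamts1 by -1.06 ± 0.44 and -0.37 ± 0.44 (adjusted p = 0.804 and 0.9997). In the fit that left out C replicate 2, Mmp2, a gelatinase named after its values were seen, passed between DM+SGLT2i and C (1.98 ± 0.16, adjusted p = 0.0448). It stood at 39.2 CPM in C replicate 2, 4.44 and 5.21 CPM in the other controls, 4.82 and 4.32 CPM in DM-22 and 20.7 and 20.3 CPM in DM+SGLT2i. The fibroblast marker Col1a1 and the macrophage marker C1qa, also named after their values were seen, passed in the same fit, by 2.06 ± 0.18 and 1.502 ± 0.13 (adjusted p = 0.0490 for both), and C1qa passed between all diabetic libraries and C (1.29 ± 0.11, adjusted p = 0.0448).

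Transcripts of TGF-beta signaling, the classical inducer of matrix genes in diabetic kidney, showed small median differences, with larger ones in single genes. Signaling itself was not measured. Of 18 tested genes, 5 were positive in DM-22 against C (median -0.13), 13 in DM+SGLT2i against C (median 0.08) and 11 between the diabetic groups (median 0.17). 0 passed the adjusted threshold, and at the unadjusted threshold 1, Ccn2, passed downward in DM-22, 0 in DM+SGLT2i against C and 0 between the diabetic groups. Tgfbr2, the type II receptor, ran from 116 to 141 CPM in C, at 96.4 and 110 CPM in DM-22 and at 142 and 125 CPM in DM+SGLT2i, and Thbs1, an activator of latent TGF-beta, from 56.5 to 161 CPM in C, at 137 and 61.8 CPM in DM-22 and at 110 and 144 CPM in DM+SGLT2i. Smad4, the common signal transducer, differed from C by 0.28 ± 0.14 in DM-22 and the TGF-beta target Ccn2 by -0.88 ± 0.36 (adjusted p = 0.804 for both). Tgfbi, another target, differed by 0.61 ± 0.34 in DM+SGLT2i and the inhibitory Smad7 by -0.55 ± 0.29 (adjusted p = 0.9997 for both). Leaving out C replicate 2 raised the median difference between DM+SGLT2i and C in all 5 lists, to 0.49 for the other basement membrane components, 0.27 for collagen folding and crosslinking, 0.55 for the receptors, 0.67 for the proteases and inhibitors and 0.11 for TGF-beta signaling, beside -0.03 over all genes. The same step lowered the median of the 10 members from 0.27 to 0.23. In the fit of only DM+SGLT2i and C without C replicate 2, a choice made after seeing the data in which 11.9% of all genes passed, the genes that passed were 4 upward and 1 downward of the 26 other components, 5 upward of 21 for collagen folding, 7 upward of 16 receptors, 8 upward and 1 downward of 17 proteases and inhibitors, and 2 upward and 1 downward of 18 for TGF-beta signaling. Of the genes of these lists named above, Col18a1 (adjusted p = 0.0119), Sparc (1.15 ± 0.13, adjusted p = 0.00828), Gpc1 (0.91 ± 0.13, adjusted p = 0.0119), Timp3 (-0.81 ± 0.17, adjusted p = 0.0336), Itga1 (0.68 ± 0.12, adjusted p = 0.0230), Loxl4 (1.47 ± 0.25, adjusted p = 0.0190), Mmp15 (1.27 ± 0.18, adjusted p = 0.0116), Tgfbi (0.88 ± 0.22, adjusted p = 0.0496) and Smad7 (-0.84 ± 0.13, adjusted p = 0.0142) passed there, as did Mmp2.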

How the data were processed

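RNA was taken from renal tissue, and libraries were made with a kit that marks strand; whether counting used strand is not given in the sources used here. Per the labels, bcl2fastq, FastQC, Trim Galore, STAR, edgeR and the mm10 build were used, with no versions or settings given. The authors deposited log2 values for 17537 genes, made from TMM-normalized CPM (read counts scaled to library size) with a constant added. The file was described as CPM, yet it holds negative numbers, and each of the 7 libraries has the same lowest value, -4.66, so it was read as log2. The constant was taken from that lowest value and subtracted after undoing the logarithm, which gave whole reads for 100% of entries up to 1000 reads (tolerance 0.1 read). Columns left out numbered 0. Because the deposited unit is log2, the main test was not a count test. Voom weights on the recovered reads were used only as an alternative, chosen after seeing the data.

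A gene was kept if 2 or more libraries reached 1 CPM. The test was limma 3.58.1 under R 4.3.3, with lmFit and a trended eBayes, on log2(CPM + 0.5), with the 3 groups fitted together, two-sided p-values and Benjamini-Hochberg adjustment over all genes at 0.05. The fit was tested on simulated data. Ratios were compared with an exact two-sided permutation test (scipy 1.17.1) over 35 arrangements, adjusted over 5 ratios. Exon lengths and positions are from GENCODE M21. The members, lists and tests were chosen with earlier results of these data known. The text names the 10 members and their paralogs or partners (Lamb1, Lama1, Lamc1, Col4a6, Nid2). It also names Cdkn1a and the 5 genes nearest in profile to Col4a1 and Col4a3. From each of 5 lists of related genes it names the 2 with the highest mean CPM and any past the threshold. It adds those with the smallest p in each direction in both comparisons with C. Markers of 9 cell types are given as sums, and single markers were named after their values were seen. Alternatives were the pseudocount, the filter, the scaling, the samples in the fit, a replicate block, voom weights and leaving out each library. 1 gene of these lists is not reported here.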

Additional observations from a re-analysis of the deposited data

Results flagged for a closer look

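Nid1 was the 1 member in which both DM-22 libraries lay below the mean of the controls and both DM+SGLT2i libraries above it. On the log2(CPM + 0.5) scale, DM-22 lay at -0.55 and DM+SGLT2i at 0.49 relative to C, a difference of 1.05 between the groups. That opposite movement was not tested as such; the limma comparison of the 2 diabetic groups gave the same difference with adjusted p = 0.881. With 3, 2 and 2 libraries per group, no group was large enough for a test of single outlying libraries.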

How the results depend on the processing

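Over 1498 comparisons of a result with an alternative, 1410 kept their direction and their side of the threshold or stayed within the spread, 46 changed sign, 27 moved by more than the spread or by over 1.5 times and 15 passed the threshold. Calls appeared only where C replicate 2 was left out. Genes called with limma numbered 0 in every comparison with all 3 controls, and leaving out 1 library at a time gave 0 to 2 for DM-22 against C, 0 to 17 for DM+SGLT2i against C and 0 to 28 for all diabetic libraries against C, each upper value without C replicate 2. With only the groups compared and C replicate 2 left out (chosen after seeing the data), 1648 genes and 2 members, Col4a1 and Col4a2, were called for DM+SGLT2i against C, and 28 genes for all diabetic libraries against C. Both other scalings, no filter and both pseudocounts called 0 members, as did voom weights (also chosen after seeing the data). The replicate numbers of the diabetic groups share no labelled batch, and the deviations of same-numbered libraries did not correlate (r = -0.0412 over 13976 genes); with the replicate block, 0 genes and 0 members were called between DM+SGLT2i and DM-22.

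Signs of small differences moved. With 1 library left out, the log2 difference between DM-22 and C ran from -0.0911 to 0.462 for Col4a1, -0.143 to 0.380 for Col4a2, -0.272 to 0.255 for Col4a3, -0.166 to 0.317 for Col4a4, -0.00525 to 0.381 for Lamb2 and -0.424 to 0.225 for Hspg2. Between DM+SGLT2i and C it ran from -0.113 to 0.415 for Col4a3, -0.321 to 0.161 for Col4a4, -0.166 to 0.0936 for Col4a5, -0.223 to 0.316 for Lama5, -0.125 to 0.0629 for Agrn, -0.663 to 0.0692 for Adamts1 and -0.463 to 0.0353 for Plod2. Between the diabetic groups it ran from -0.0734 to 0.186 for Col4a5 and -0.0286 to 0.357 for Lamb2. Between all diabetic libraries and C it ran from -0.193 to 0.335 for Col4a3, -0.244 to 0.239 for Col4a4, -0.129 to 0.000659 for Col4a5, -0.255 to 0.188 for Nid1 and -0.0756 to 1.29 for C1qa, and the log2 ratios from -0.0209 to 0.192 (Col4a3 to Col4a4) and -0.265 to 0.354 (Lama5 to Lama1). Scaling by library totals alone gave -0.0198 for Col4a2 and -0.0522 for Col4a3 in DM-22 against C and -0.00879 for Col4a4 in all diabetic libraries. With only the groups compared and C replicate 2 left out, Col4a3 (-0.272) and Col4a4 (-0.166) in DM-22, Col4a3 (-0.113), Lama5 (-0.0486) and Agrn (0.0629) in DM+SGLT2i, and Col4a3 (-0.193), Col4a4 (-0.244) and Nid1 (0.188) in all diabetic libraries also changed sign. Library totals alone shifted the median of all genes between the diabetic groups by 0.105 log2. Leaving out DM-22 replicate 2 moved the median difference of the members between the diabetic groups from 0.483 to 0.198, and, against C, that of the other basement membrane components from -0.183 to 0.00179 and that of the proteases and inhibitors from -0.428 to 0.21. The cause of these changes was not tested beyond the libraries and settings named.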
